A study of Homo sapiens with 6 samples.

Results

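The 10 genes described here are PARP9, DTX3L, PARP14, PARP15, PARP10, PARP11, PARP12 and ZC3HAV1, which are linked to the interferon response, and PARP1 and PARP2, which serve as comparators outside that response. They were taken by gene symbol from a table of 19402 genes, and all 10 were counted deeply enough to be tested among 13388 genes. The libraries labelled IRF1-KO are 3 pools of edited clones of CFPAC1, an established human cell line from a pancreatic ductal tumour; the clones were obtained by dilution after infection with the lentiCRIPSv2 plasmid, which carried wt Cas9 and a guide RNA against IRF1. The 3 WT libraries are pools of CFPAC1 clones isolated in the same way after infection with lentiCRIPSv2, with no guide named in their labels. Both groups were grown in IMDM with fetal bovine serum, and no interferon treatment is labelled for these 6 libraries, so each group gives steady-state levels in a pool of selected clones.

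PARP proteins transfer ADP-ribose from NAD to proteins or nucleic acids. PARP1 and PARP2 build chains of ADP-ribose at DNA breaks, whereas most of the interferon-linked enzymes add single ADP-ribose units, and several act against viruses. Interferons switch such genes on through a complex that contains STAT2 and IRF9 and through IRF1, which bind repeats of GAAA known as interferon-stimulated response elements (ISRE). Another element of interferon-induced promoters is the gamma-activated site (GAS). PARP9 and DTX3L lie head to head on chromosome 3 and their proteins form a complex in which DTX3L is a ubiquitin ligase.

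The promoters are shown first because the genes with the 4 most negative log2 fold changes in the test as reported also shared a sequence feature in them. That order was not fixed. With a correction for GC content PARP10 was at −1.04 and PARP9 at −0.96. Without IRF1-KO replicate 2 PARP15 was at −1.21 and PARP9 at −1.14. RefSeq windows on GRCh38.p14, each with 250 bases before and 50 bases after a start site, were found for 9 of the 10 genes, all but PARP10, and were read 5′ to 3′ on the strand of the gene. They were searched on both strands for an ISRE core, GAAA followed by any 2 bases and again GAAA, and for a GAS core, TTC followed by any 3 bases and GAA. Capitals mark the ISRE core, or its reverse complement where the core lies on the other strand.

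DTX3L, chr3:122564088-122564387, plus strand: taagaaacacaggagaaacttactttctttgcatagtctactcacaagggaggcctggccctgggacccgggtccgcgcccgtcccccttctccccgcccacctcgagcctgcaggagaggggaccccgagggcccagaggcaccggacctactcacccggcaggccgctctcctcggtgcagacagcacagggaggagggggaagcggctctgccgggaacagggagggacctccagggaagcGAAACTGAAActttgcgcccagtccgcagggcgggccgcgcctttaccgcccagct
PARP9, 50 bases from its window chr3:122564251-122564550, minus strand: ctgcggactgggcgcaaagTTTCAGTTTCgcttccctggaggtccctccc
PARP14, chr3:122680589-122680888, plus strand: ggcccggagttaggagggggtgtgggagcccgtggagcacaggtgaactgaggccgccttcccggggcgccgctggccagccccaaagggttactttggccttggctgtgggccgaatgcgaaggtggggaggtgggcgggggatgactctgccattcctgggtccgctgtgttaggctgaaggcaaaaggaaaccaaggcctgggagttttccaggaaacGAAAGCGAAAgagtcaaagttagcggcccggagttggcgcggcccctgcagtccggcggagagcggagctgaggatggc
PARP12, chr7:140062902-140063201, minus strand: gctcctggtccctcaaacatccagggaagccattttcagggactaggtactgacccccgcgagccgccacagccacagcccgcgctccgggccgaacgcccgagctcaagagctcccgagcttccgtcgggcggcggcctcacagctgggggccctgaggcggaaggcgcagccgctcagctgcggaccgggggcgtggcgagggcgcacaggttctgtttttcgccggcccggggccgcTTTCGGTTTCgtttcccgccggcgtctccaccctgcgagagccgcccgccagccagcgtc
PARP1, chr1:226408044-226408343, minus strand, with no ISRE core: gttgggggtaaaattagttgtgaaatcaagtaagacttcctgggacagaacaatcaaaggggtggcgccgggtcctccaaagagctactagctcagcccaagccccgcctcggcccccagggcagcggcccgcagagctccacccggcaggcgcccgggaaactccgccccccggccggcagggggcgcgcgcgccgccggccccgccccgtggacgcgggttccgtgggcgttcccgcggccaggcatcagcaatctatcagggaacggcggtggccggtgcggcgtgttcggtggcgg

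The ISRE core of PARP9 and that of DTX3L are the same 10 base pairs, chr3:122564332-122564341, read from opposite strands. They read GAAACTGAAA on the DTX3L strand and lie at positions −6 to 3 from the DTX3L start and −41 to −32 from a PARP9 start. PARP14 has GAAAGCGAAA at −29 to −20, and PARP12 has GAAACCGAAA on the other strand at −10 to −1. The ISRE core was in 4 of the 11 windows of these genes, the PARP9 and DTX3L windows sharing 1 site, and in 3.57% of all 35116 RefSeq windows (1255 windows). No match was found in the windows of ZC3HAV1, PARP11, PARP15, PARP1 and PARP2, nor in the second PARP9 window. A GAS core was in 4 of the 11 windows, of PARP14, PARP15, ZC3HAV1 and PARP2, and in 7.66% of all windows; in PARP14 it reads TTCCAGGAA at −40 to −32 and does not overlap the ISRE core. Among all tested genes with a window, the median log2 fold change was −0.10 for the 449 with an ISRE core and −0.011 for the 10390 without it. Every IRF1-KO library was below every WT library for 17.4% of the 449 and for 6.2% of the 10390. The 449 include PARP9, DTX3L, PARP14 and PARP12, and the difference was not tested. A match describes the reference letters only and binding was not measured. Most of these genes were chosen for their link to interferon, so their share of ISRE cores is not a result of these libraries.

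The guide target is reported first. IRF1, on chromosome 5, had 117, 123 and 132 CPM (counts scaled to library size and composition) in the libraries labelled IRF1-KO, against 87.3, 91.3 and 82.6 CPM in WT. Its transcript was thus not lower under the IRF1-KO label, and every library of that label stood above every WT library (log2 fold change 0.51 ± 0.10, SE; edgeR adjusted p = 0.135; DESeq2 called it higher, adjusted p = 0.00105). Counts over all exons do not show whether the protein was lost, so directions below are those of the labels.

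Total counts ranged from 16413682 to 28258075 per library. Of 8 ductal epithelial markers 7 were tested and KRT8 was among them, while CFTR was under 1 CPM in every library; their summed level was 4870 to 6780 CPM in IRF1-KO and 4260 to 7360 CPM in WT. WT replicate 3 had the lowest KRT7, KRT8, KRT18, EPCAM and CDH1 of the 6 libraries, whereas KRT19 and MUC1 were lowest in IRF1-KO replicate 1. CDH1, the epithelial cadherin, had 279, 422 and 239 CPM in IRF1-KO replicates 1 to 3, against 499, 378 and 107 CPM in WT replicates 1 to 3. Without WT replicate 3 the log2 fold change was −1.34 for PARP14 (edgeR adjusted p = 0.0409), −1.34 for PARP12 (0.043), −1.16 for DTX3L (0.0461) and −0.98 for PARP9 (0.0889). In that refit 91 of all tested genes had an adjusted p under 0.05, 36 of them lower. In the test as reported 17 did, 15 of them lower. MUC1 had a log2 fold change of −1.22 ± 0.53 (SE; edgeR adjusted p = 0.553), with overlap between groups. Of 10 leukocyte markers 7 were under 1 CPM in every library, among them PTPRC, and MS4A1 was at 0; their sum, mostly CD68 and LYZ, was 143 to 178 CPM in IRF1-KO and 168 to 212 CPM in WT. LYZ, lysozyme, had 13.4, 22.5 and 24.5 CPM in IRF1-KO replicates 1 to 3, against 28.8, 75.0 and 25.6 CPM in WT replicates 1 to 3, without overlap (log2 fold change −1.09 ± 0.45, SE; edgeR adjusted p = 0.535). The sums were 35.2 to 76.4 CPM in IRF1-KO and 32.4 to 50 CPM in WT for 6 fibroblast markers, and 7.09 to 8.17 CPM in IRF1-KO and 5.36 to 7.40 CPM in WT for 6 endothelial markers, of which ERG was at 0. The endothelial marker KDR had 6.52, 5.38 and 6.33 CPM in IRF1-KO, against 4.27, 3.81 and 4.13 CPM in WT, without overlap (log2 fold change 0.58 ± 0.21, SE; edgeR adjusted p = 0.441). The part of these marker differences in the results on PARP genes was not tested.

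Of the 8 interferon-linked genes, PARP14 passed the adjusted threshold of 0.05, and it was lower under the IRF1-KO label; over all tested genes 15 passed it as lower (0.112%) and 2 as higher (0.0149%). At an unadjusted p under 0.05, PARP9, DTX3L, PARP14, PARP12 and ZC3HAV1 were lower, 5 of 8 genes, where 3.75% of all tested genes were, and none of the 8 was higher, where 5.39% of all tested genes were. The same 5 genes had every IRF1-KO library below every WT library, which held for 6.75% of all tested genes. DESeq2, run as an alternative, called 4 of the 8 as lower, PARP9, DTX3L, PARP14 and PARP12, against 0.964% of all tested genes. The median log2 fold change of the 8 was −0.89, against −0.0175 over all tested genes. Neither comparator met any of these rules. In bulk libraries, fewer cells that express a gene and less RNA of it per cell cannot be told apart.

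**Figure D1:**
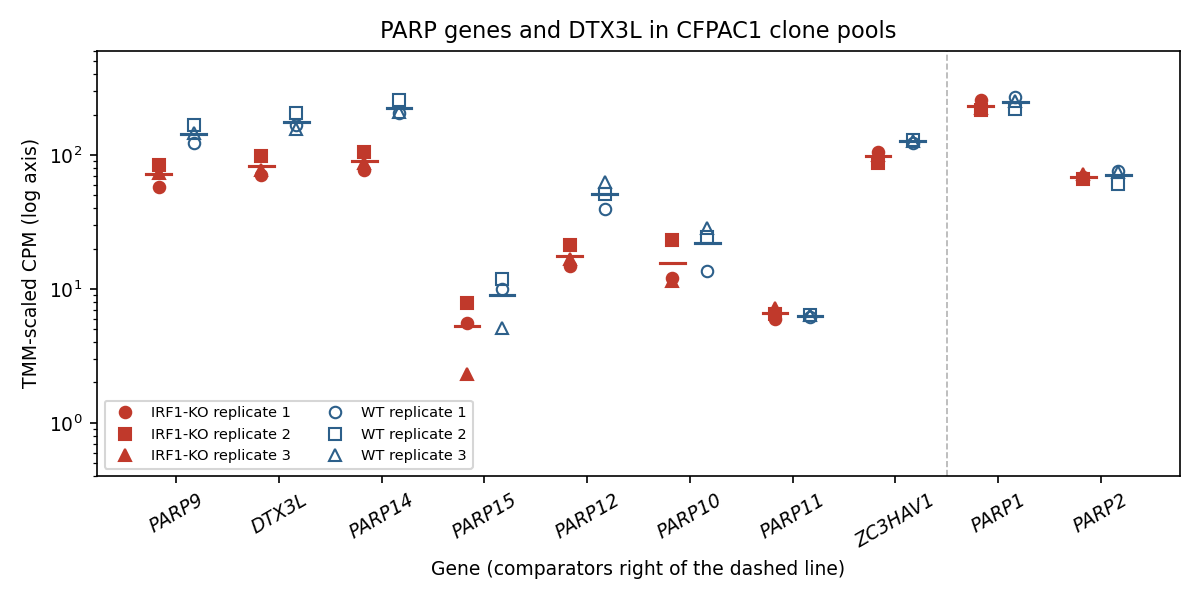
Level of each gene in every library, as TMM-scaled CPM on a log axis; filled red symbols are IRF1-KO pools, open blue symbols WT pools, symbol shape is the replicate number and bars are group means (n = 3). PARP9, DTX3L, PARP14, PARP12 and ZC3HAV1 have no overlap between groups, whereas PARP15, PARP10, PARP11, PARP1 and PARP2 do.

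PARP14, a mono-ADP-ribosyltransferase with macrodomains that bind ADP-ribose, lies at chr3:122680839-122730840 on the plus strand (ENSG00000173193.15). It had 76.7, 106 and 87.3 CPM in IRF1-KO replicates 1 to 3, against 206, 256 and 209 CPM in WT replicates 1 to 3. The highest IRF1-KO pool was far below the lowest WT pool. PARP14 fell 2.48-fold, with means of 90.0 ± 14.8 CPM in IRF1-KO and 224 ± 28.4 CPM in WT (SD, n = 3 each; log2 fold change −1.31 ± 0.15, SE; 95% confidence interval −1.67 to −0.95; edgeR adjusted p = 0.0335). The call was lost without IRF1-KO replicate 1 (adjusted p = 0.142), IRF1-KO replicate 3 (0.243), WT replicate 1 (0.0644) or WT replicate 2 (0.149), and with a correction for GC content (0.053). PARP14 was lower in all 15 alternatives that refit the model, with log2 fold changes from −1.45 to −1.19.

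PARP9 has macrodomains and acts together with DTX3L (PARP9: ENSG00000138496.16, chr3:122527924-122564577, minus strand; DTX3L: ENSG00000163840.10, chr3:122564338-122575203, plus strand). PARP9 had 57.4, 84.8 and 73.4 CPM in IRF1-KO replicates 1 to 3, against 122, 167 and 145 CPM in WT replicates 1 to 3. DTX3L had 70.8, 98.9 and 77.1 CPM in IRF1-KO replicates 1 to 3, against 166, 206 and 156 CPM in WT replicates 1 to 3. For both genes the groups did not overlap, and replicate 2 was the highest library within each group. The log2 fold change was −1.01 ± 0.18 for PARP9 (95% confidence interval −1.42 to −0.60; edgeR adjusted p = 0.117) and −1.10 ± 0.17 for DTX3L (−1.48 to −0.71; adjusted p = 0.0711), so neither passed the threshold. DESeq2 called both (adjusted p = 5.55e-05 for PARP9 and 9.9e-07 for DTX3L), and edgeR called DTX3L with no filter on low counts (0.0393) and without WT replicate 3 (0.0461). With edgeR DTX3L did not pass without IRF1-KO replicate 1 (adjusted p = 0.237), 2 (0.076) or 3 (0.403). Nor did it pass without WT replicate 1 (0.153) or 2 (0.308), or with a correction for GC content (0.111). PARP9 and DTX3L share 139 exon bases on opposite strands in the table, of 8938 exon bases of PARP9 and 5768 of DTX3L, and the strand setting of the counting is not given in the sources used here, so reads from those bases cannot be assigned with certainty.

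The balance of the pair was compared within each library, where it does not depend on scaling. The log2 ratio of DTX3L to PARP9 counts was 0.30, 0.22 and 0.07 in IRF1-KO replicates 1 to 3, against 0.45, 0.30 and 0.11 in WT replicates 1 to 3. The groups overlapped and the mean difference was −0.09 (exact permutation test, two-sided, p = 0.5); it was −0.01 without WT replicate 1 and −0.18 without WT replicate 3. A p of this size does not show that the balance was equal, since 3 pools against 3 cannot give a p below 0.1. The log2 ratio of PARP9 to PARP1 was −2.16, −1.34 and −1.62 in IRF1-KO replicates 1 to 3, against −1.16, −0.41 and −0.81 in WT replicates 1 to 3. The ratios to PARP1 differed by −0.92 for PARP9, −1.01 for DTX3L and −1.22 for PARP14, with no overlap between groups and each at the smallest possible exact permutation p of 0.1 (0.133 after Benjamini-Hochberg adjustment over 4 ratios).

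PARP12, a mono-ADP-ribosyltransferase with CCCH zinc fingers (ENSG00000059378.12; chr7:140023744-140063721, minus strand), had the most negative log2 fold change of the 10 genes. It had 14.9, 21.2 and 16.7 CPM in IRF1-KO replicates 1 to 3, against 39.7, 50.7 and 62.8 CPM in WT replicates 1 to 3. The groups did not overlap. The means were 17.6 ± 3.25 CPM in IRF1-KO and 51.1 ± 11.6 CPM in WT (SD, n = 3 each), with a log2 fold change of −1.54 ± 0.21 (95% confidence interval −2.02 to −1.05) just outside the threshold (edgeR adjusted p = 0.0555). DESeq2 called it (adjusted p = 1.27e-08), and edgeR called it without WT replicate 1 (0.0455), without WT replicate 3 (0.043), with no filter on low counts (0.0244) and with a stricter filter (0.0476). These were 5 of the 15 alternatives that refit the model. With edgeR it did not pass without IRF1-KO replicate 1 (adjusted p = 0.208), 2 (0.0795) or 3 (0.383). Nor did it pass without WT replicate 2 (0.283) or with the correction for GC content (0.0736).

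ZC3HAV1 encodes the zinc finger antiviral protein ZAP, a PARP family member without transferase activity that binds CpG-rich viral RNA (ENSG00000105939.13; chr7:139043515-139109720, minus strand). It had 105, 87.0 and 100 CPM in IRF1-KO replicates 1 to 3, against 122, 130 and 128 CPM in WT replicates 1 to 3. The groups did not overlap but lay close together. Its log2 fold change was −0.38 ± 0.11 (95% confidence interval −0.63 to −0.13; edgeR adjusted p = 0.292; DESeq2 adjusted p = 0.0733), so neither tool called it.

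PARP15, a mono-ADP-ribosyltransferase next to PARP14 on chromosome 3 (ENSG00000173200.13; chr3:122577628-122639047, plus strand), was sparsely counted, with 62 to 225 reads a library. It had 5.55, 7.85 and 2.32 CPM in IRF1-KO replicates 1 to 3, against 10.0, 11.9 and 5.09 CPM in WT replicates 1 to 3. The groups overlapped, and replicate 3 was the lowest library of both. The log2 fold change was −0.78 ± 0.48 (95% confidence interval −1.90 to 0.34; edgeR adjusted p = 0.717) and ranged from −1.21 without IRF1-KO replicate 2 to −0.42 without IRF1-KO replicate 3.

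PARP10, a mono-ADP-ribosyltransferase on chromosome 8 (ENSG00000178685.14), had 12.0, 23.0 and 11.4 CPM in IRF1-KO replicates 1 to 3, against 13.7, 24.4 and 28.5 CPM in WT replicates 1 to 3. IRF1-KO replicate 2 lay within the WT range, and WT replicate 1 within the IRF1-KO range. The log2 fold change was −0.51 ± 0.36 (95% confidence interval −1.35 to 0.32; edgeR adjusted p = 0.761). PARP10 has a transcript GC content of 66.9%, and log2 fold changes had a median of 0.52 among the 477 tested genes above 65% GC. With the correction for GC content its log2 fold change was −1.04 (adjusted p = 0.301); it was −0.92 without IRF1-KO replicate 2, −0.33 without IRF1-KO replicate 3 and −0.27 without WT replicate 3. The exons of PARP10 overlap those of GRINA by 324 bases and of SPATC1 by 197 bases, both on the other strand.

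PARP11, a mono-ADP-ribosyltransferase (ENSG00000111224.14; chr12:3791047-3873448, minus strand), had 5.91, 6.53 and 7.23 CPM in IRF1-KO replicates 1 to 3, against 6.18, 6.36 and 6.39 CPM in WT replicates 1 to 3. The groups overlapped, and the log2 fold change was 0.06 ± 0.19 (95% confidence interval −0.38 to 0.49; edgeR adjusted p = 0.961).

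The comparators overlapped between groups. PARP1 (ENSG00000143799.13; chr1:226360691-226408093, minus strand) had 257, 215 and 226 CPM in IRF1-KO replicates 1 to 3, against 272, 222 and 254 CPM in WT replicates 1 to 3, a log2 fold change of −0.10 ± 0.12 (95% confidence interval −0.39 to 0.19). PARP2 (ENSG00000129484.13; chr14:20343582-20357905, plus strand) had 68.4, 66.0 and 71.5 CPM in IRF1-KO replicates 1 to 3, against 75.7, 61.1 and 74.3 CPM in WT replicates 1 to 3, a log2 fold change of −0.04 ± 0.12 (−0.31 to 0.24). The edgeR adjusted p was 0.88 for PARP1 and 0.961 for PARP2. The intervals leave room for differences of up to 1.31-fold lower for PARP1 and 1.24-fold lower for PARP2.

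**Figure D2:**
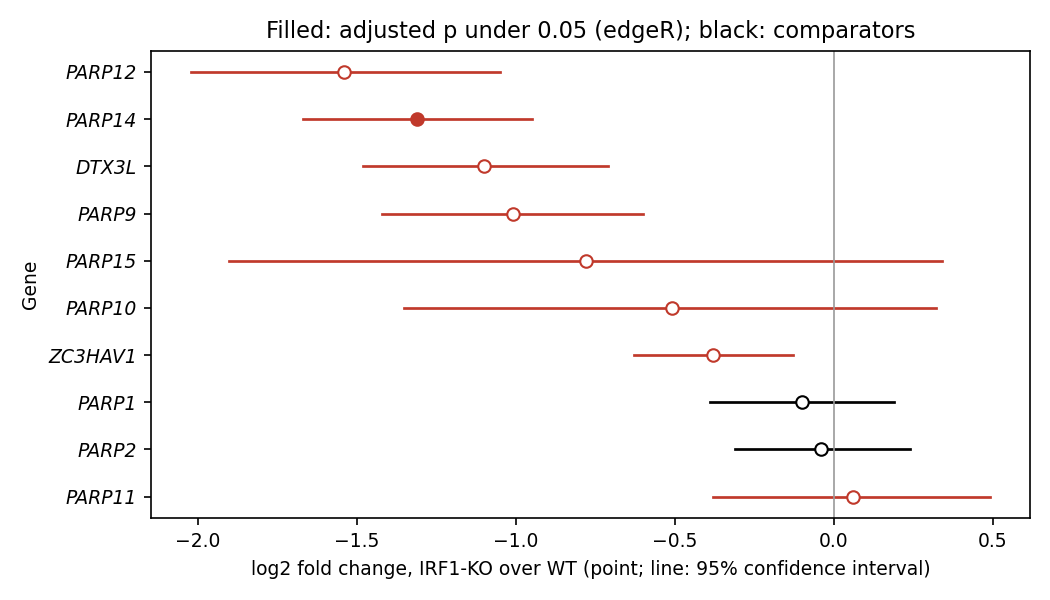
Fitted log2 fold change of each gene, IRF1-KO over WT (points), with its 95% confidence interval (lines); filled points passed an adjusted p of 0.05 and black marks the comparators. PARP14 is the filled point, and the intervals of PARP12, PARP14, DTX3L, PARP9 and ZC3HAV1 lie below 0.

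Levels were compared between genes per length, as TPM (counts divided by the exon length of each gene and scaled to the same sum in every library). In IRF1-KO pools the order was PARP1 (125 TPM), PARP2 (64.5), DTX3L (54.8), ZC3HAV1 (45.5), PARP14 (33.7), PARP9 (30.9), PARP12 (10.8), PARP10 (9.87), PARP11 (4.07) and PARP15 (3.68). In WT pools it was PARP1 (131 TPM), DTX3L (116), PARP14 (82.6), PARP2 (64.9), PARP9 (61.3), ZC3HAV1 (58.3), PARP12 (30.8), PARP10 (14.0), PARP15 (6.23) and PARP11 (3.85). DTX3L and PARP14 thus stood above PARP2 in WT pools and below it in IRF1-KO pools. Ranges over libraries were compared between genes adjacent in each order. In IRF1-KO they overlapped for PARP2 with DTX3L, DTX3L with ZC3HAV1, PARP14 with PARP9, PARP12 with PARP10 and PARP11 with PARP15. In WT they overlapped for PARP1 with DTX3L, PARP2 with PARP9, PARP9 with ZC3HAV1, PARP10 with PARP15 and PARP15 with PARP11. PARP2 and ZC3HAV1, not adjacent, also overlapped in WT (57.8 to 68.6 and 54.8 to 61.3 TPM). The summed level of the 8 interferon-linked genes was 174, 219 and 187 TPM in IRF1-KO replicates 1 to 3, against 328, 428 and 362 TPM in WT replicates 1 to 3. The sum of PARP1 and PARP2 was 202, 177 and 189 TPM in IRF1-KO, against 208, 177 and 202 TPM in WT, with overlap.

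**Figure D3:**
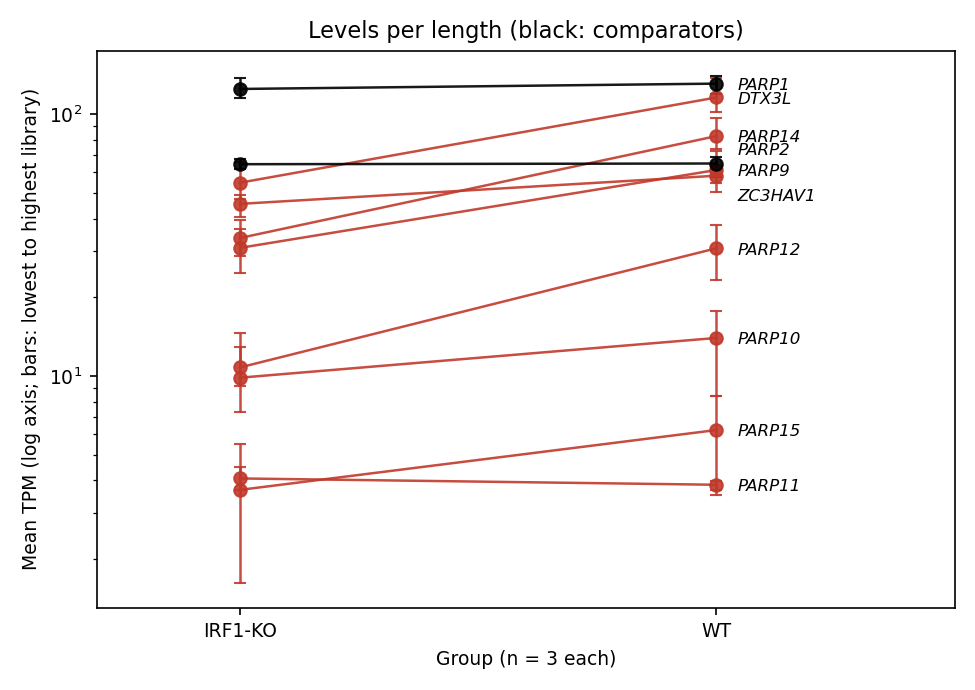
Mean TPM of each gene in IRF1-KO and WT pools on a log axis; bars run from the lowest to the highest library (n = 3 each) and black marks PARP1 and PARP2. The line of PARP14 joins 33.7 TPM in IRF1-KO to 82.6 TPM in WT, while PARP2 joins 64.5 TPM to 64.9 TPM.

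PARP9, DTX3L, PARP15 and PARP14 are neighbours on chromosome 3, and the table holds 9 genes, these 4 included, whose lower coordinate lies within 200 kb of PARP9. The other 5, all tested, were MIX23, FAM162A, WDR5B, KPNA1 and HSPBAP1. Their log2 fold changes lay between −0.11 ± 0.13 for FAM162A and 0.13 ± 0.16 for HSPBAP1 (SE). None of the 5 had an unadjusted p under 0.05. KPNA1, the nuclear import factor nearest to PARP9 on its other side, had 141, 150 and 151 CPM in IRF1-KO, against 147, 147 and 135 CPM in WT.

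**Figure D4:**
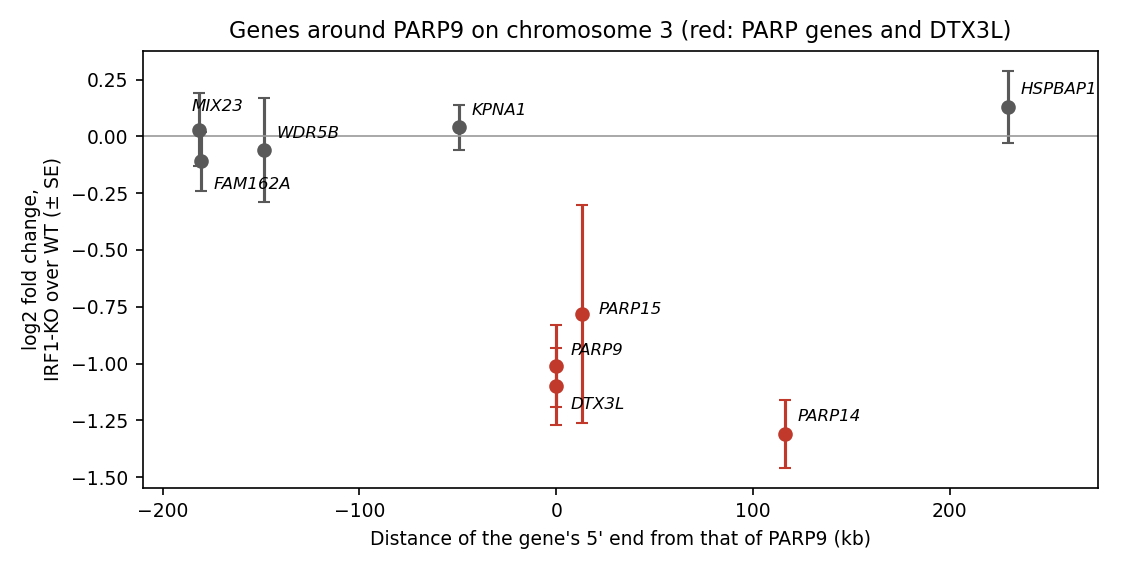
Log2 fold change, IRF1-KO over WT, with its SE, of the 9 genes around PARP9, against the distance in kb of their 5′ ends from that of PARP9. PARP9, DTX3L, PARP15 and PARP14 (red) lie between −1.31 and −0.78, and the other 5 genes (grey) between −0.11 and 0.13.

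Outside the 10 genes, those with the pattern most like PARP9 over the 6 libraries, by Pearson's r of log2 CPM, were TRIM21 (0.997), SAMD9L (0.995), TRIM22 (0.993), HLA-B (0.986) and MCTP2 (0.985). For PARP14, again outside the 10 genes, they were MCTP2 (0.996), ZRSR2 (0.996), GBP4 (0.992), APOL3 (0.991) and TLR3 (0.987). TRIM21 and TRIM22 are ubiquitin ligases with antiviral roles, GBP4 is a guanylate-binding protein and TLR3 a sensor of double-stranded RNA. Of these, GBP4 had 3.17 to 4.50 CPM in IRF1-KO and 27.7 to 49.0 CPM in WT, and it fell by 3.19 ± 0.26 on the log2 scale (SE; edgeR adjusted p = 0.00737). TLR3 had 9.14 to 10.5 CPM in IRF1-KO and 30.7 to 41.7 CPM in WT, and it fell by 1.85 ± 0.16 on the log2 scale (SE; edgeR adjusted p = 0.00737). MCTP2 and ZRSR2, at ranks 1 and 2 in likeness to PARP14, did not pass the threshold. Their log2 fold changes were −0.96 ± 0.21 for MCTP2 (SE, edgeR adjusted p = 0.166) and −0.42 ± 0.15 for ZRSR2 (0.404). Among the 10 genes themselves, DTX3L stood at rank 3 of 13387 genes in likeness to PARP14 (0.995), and PARP9 (0.983) and PARP12 (0.964) at ranks 15 and 51. ZC3HAV1 (0.825), PARP10 (0.628), PARP15 (0.636) and PARP1 (0.164) were less like PARP14 by this measure. In likeness to PARP9, PARP14 stood at rank 11 (0.983), DTX3L at rank 19 (0.976) and PARP12 at rank 36 (0.966). These values describe 6 libraries that fall into 2 groups, so any gene with a group difference scores high, and no test was made. Reads of HLA-B can be shared with other HLA genes.

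Genes around the interferon-linked PARPs were described from lists of known pathway members. The interferon signalling list held 14 genes, all tested; none passed the adjusted threshold with edgeR, and DESeq2 called 1 lower and 1, IRF1, higher. At an unadjusted p under 0.05, 5 of the 14 were lower and 2 higher, IRF1 itself and the kinase gene TYK2, where 3.75% of all tested genes were lower and 5.39% higher. In 6 of the 14 every IRF1-KO library was below every WT library, where 6.75% of all tested genes were. The median log2 fold change was −0.19. STAT2, a transcription factor of the interferon response, had 46.4, 64.6 and 57.3 CPM in IRF1-KO replicates 1 to 3, against 77.1, 104 and 76.3 CPM in WT replicates 1 to 3. The groups did not overlap (log2 fold change −0.61 ± 0.17, SE; edgeR adjusted p = 0.299; DESeq2 adjusted p = 0.0668). IRF9, its DNA-binding partner, was also without overlap, with a log2 fold change of −0.77 ± 0.23 (SE; edgeR adjusted p = 0.315). The interferon receptor genes IFNAR1 (log2 fold change −0.07 ± 0.11), IFNAR2 (−0.30 ± 0.15), IFNGR1 (−0.08 ± 0.13) and IFNGR2 (−0.07 ± 0.17) overlapped between groups. The kinase genes did not overlap, with JAK1 (−0.29 ± 0.13) and JAK2 (−0.48 ± 0.18) lower under the IRF1-KO label and TYK2 (0.38 ± 0.14) higher.

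The remainder of the PARP family held 8 genes, of which 7 were tested and none passed the adjusted threshold. Its median log2 fold change was −0.10, and all 7 values were negative. At an unadjusted p under 0.05, 2 of the 7 were lower, PARP8 and PARP3 (−0.37 ± 0.16), where 3.75% of all tested genes were. In 3 of the 7, PARP3, PARP8 and TNKS, every IRF1-KO library was below every WT library, where 6.75% of all tested genes were. The smallest p was that of PARP8, a mono-ADP-ribosyltransferase, with 35.8, 40.8 and 42.0 CPM in IRF1-KO, against 45.5, 55.4 and 51.0 CPM in WT (log2 fold change −0.35 ± 0.12; edgeR adjusted p = 0.415). The tankyrase genes TNKS and TNKS2 had −0.25 ± 0.12 and −0.04 ± 0.09. Of the other Deltex genes, relatives of DTX3L, 3 of 4 were tested, with a median of −0.05; DTX2 had the smallest p (0.24 ± 0.19). All 3 ZAP cofactors were tested, with a median of −0.16; KHNYN, an RNase that works with ZAP, had −0.18 ± 0.10, and TRIM25, the ubiquitin ligase that works with ZAP, had −0.16 ± 0.11.

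Genes that remove ADP-ribose, 10 of 10 tested, had a median log2 fold change of 0.02. The smallest p was that of the hydrolase gene MACROD1, with 4.76, 5.79 and 7.12 CPM in IRF1-KO, against 2.63, 3.26 and 3.41 CPM in WT (0.93 ± 0.25; edgeR adjusted p = 0.278). MACROD1 has a GC content of 67.3% and its value was 0.35 with the GC correction. PARG, which cleaves ADP-ribose chains, had 37.6, 40.9 and 33.6 CPM in IRF1-KO, against 38.9, 38.8 and 34.6 CPM in WT, with overlap. The 4 partners of PARP1 and PARP2 had a median of 0.13, with HPF1, which directs them to serine, at 0.23 ± 0.15. The NAD supply list, 10 of 10 tested, had a median of −0.29. Its smallest p was that of NAMPT, the enzyme of NAD salvage, at −0.32 ± 0.14. At an unadjusted p under 0.05, 1 of the 10 was lower, NAMPT, and 1 higher, NAPRT. Of all tested genes, 3.75% were lower and 5.39% higher by that rule. NAPRT was at 0.53 ± 0.23, and at −0.08 with the GC correction. No gene of these 3 lists passed the adjusted threshold with edgeR or DESeq2.

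**Figure D5:**
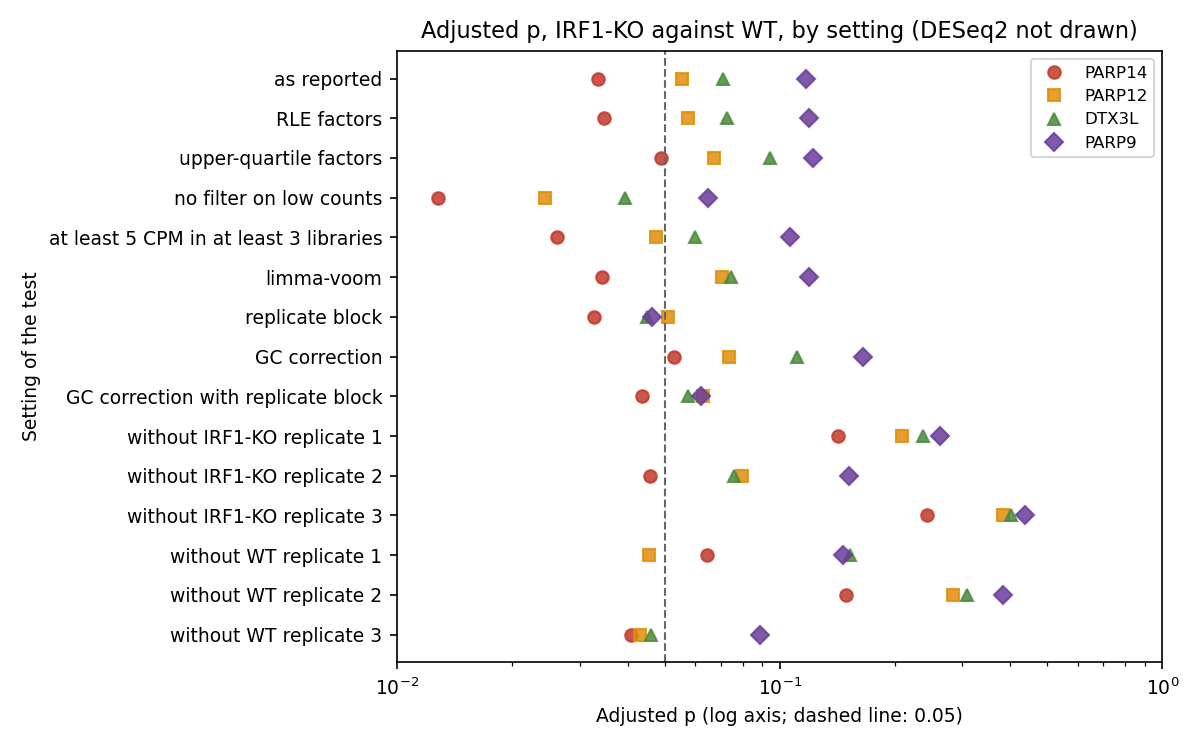
Adjusted p of PARP14, PARP12, DTX3L and PARP9, IRF1-KO against WT, on a log axis for the test as reported and each alternative except DESeq2, whose values are given in the text; the dashed line is 0.05. PARP14 runs from 0.0128 with no filter on low counts to 0.243 without IRF1-KO replicate 3.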

How the data were processed

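Poly(A)-selected RNA of 6 libraries was sequenced. The authors deposited 1 table of read counts by gene, which are whole numbers in the featureCounts layout, per the file headers, beside each gene's exon length. The submitters' processing notes name featureCounts 0.6.1, edgeR 3.2.2 and the build GRCh38 (hg38). The sources used here do not name the aligner, the annotation or the strand setting. All count columns matched a sample. Whether pools came from separate occasions is not labelled, so p-values measure the spread between pools. No pair of libraries within a group agreed within sampling noise (chi-square per degree of freedom at least 25.8).

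Symbols came from a table of current names for 19342 identifiers and from GENCODE 29 for 56. Tests used edgeR 4.0.16 under R 4.3.3 (filterByExpr, TMM factors, robust quasi-likelihood F test, two-sided, Benjamini-Hochberg adjustment over all 13388 tested genes, threshold 0.05). SE is the log2 fold change divided by the square root of F, and confidence intervals use the degrees of freedom of that test. Ratios used a prior count of 0.5. Confidence intervals cover the spread between pools as modelled. The procedure was tested on simulated counts, and the outcome is not given here. The alternatives tried were upper-quartile and RLE factors, testing with no low-count filter, a stricter filter that asked for 5 CPM in 3 or more libraries, limma-voom (limma 3.58.1), DESeq2 1.42.0, a correction for GC content (a natural spline with 5 degrees of freedom per library as an offset, on the GC content of the longest coding transcript in GENCODE 29), the replicate number as a block, both together, each library left out and stricter thresholds.

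The genes, lists and tests were chosen with earlier results of these data known. Named were the 10 genes, IRF1, the gene with the smallest p of each list (or up to 4 past the threshold), the 5 genes most like PARP9 and PARP14, and neighbours within 200 kb; other genes were named after their values were seen. A result that this rule would name is not reported here.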

Additional observations from a re-analysis of the deposited data

How the results depend on the processing

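The sign of the log2 fold change of PARP9, DTX3L, PARP14, PARP15, PARP10, PARP12, ZC3HAV1 and PARP1 was negative in all 15 refits. PARP2 was positive, at 0.00356 with upper-quartile factors, 0.00111 with the GC correction, 0.0084 with the GC correction and replicate block, 0.04 without WT replicate 1 and 0.03 without WT replicate 3, and it ran from −0.13 to 0.04 with a library left out. PARP11 ran from −0.02, without IRF1-KO replicate 3, to 0.15, without IRF1-KO replicate 1. The count of interferon-linked genes past the threshold was 1 as reported, 3 with no filter on low counts, 2 with the stricter filter, 4 with DESeq2, 0 with the GC correction and 0 at an adjusted p under 0.01, and it ran from 0 to 3 with a library left out. Over all tested genes the count was 17 as reported, 31 with no filter, 332 with DESeq2 (129 lower), 11 with the GC correction and replicate block and 7 at an adjusted p under 0.01, and it ran from 3 to 91 with a library left out. It was 3 without IRF1-KO replicate 1 or 3, 5 without WT replicate 2 and 91 without WT replicate 3. The median of the 8 genes ran from −1.18 to −0.71 with a library left out. The cause of these shifts was not tested.

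Same-numbered libraries did not deviate together throughout (correlations of deviations from group means of −0.015, 0.253 and 0.057), and not every library correlated best with its own number. With the replicate block 31 genes passed the threshold, among them PARP9 (adjusted p = 0.0464), DTX3L (0.045) and PARP14, 3 of the interferon-linked genes. With the GC correction and replicate block PARP9 (0.0623) and DTX3L (0.0577) did not pass, and PARP14 was the 1 interferon-linked gene that did (0.0437). The longer ISRE core, with a C after the second GAAA, was in 0.795% of all windows and in windows of 2 of the 10 genes, PARP9 and DTX3L. The ratios to PARP1 stayed negative in their difference with a prior count of 5 and with each library left out; that of DTX3L to PARP9 ran from −0.18 to −0.01 with a library left out. PARP15 and PARP11 had the fewest reads, which limits their precision.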
